A study of Mus musculus with 4 samples.

Results

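The genes described here are 10 rows of a table of 22138 mouse genes: Zscan4c, Zscan4d and Zscan4f of the Zscan4 family, Dub1, Dub1a and Dub3 of the Usp17-like family, Gm5662 and Gm8300 of the eIF1A-like family, and the single genes Zfp352 and Arg2. They were chosen by name as genes of the two-cell embryo, from a comparison in which they had already been seen to differ, so their values are given as a description and no test is reported for any of them. The cells were TT2 embryonic stem cells, a pluripotent line from C57BL/6xCBA mouse embryos that the labels give as female, grown without feeders in serum and the self-renewal cytokine LIF. One group received a control siRNA (n = 2 libraries) and the other an siRNA against Hnrnpk (n = 2 libraries), which encodes the RNA- and DNA-binding protein hnRNP K. Both groups were transfected at 100 nM, again 24 hours later at 50 nM, and harvested about 72 hours after that. The series' design text calls the replicates biological, and nothing else in the labels says how they were separated.

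When the mouse embryo first turns on its own genome at the two-cell stage, it transcribes a set of genes, many of them multicopy. Most of them are transcribed for a short time and kept silent by later cells. In cultures of embryonic stem cells, a small minority of cells passes in and out of a similar state at any moment, and these genes are read in such cultures as its marks. Zscan4 proteins carry a SCAN domain and zinc fingers and are known for telomere lengthening in stem cells. Usp17-like genes encode deubiquitinating enzymes, which remove ubiquitin from proteins. The eIF1A-like genes resemble the translation initiation factor eIF1A, which helps the ribosome find its start codon. Zfp352 encodes a zinc finger protein, and Arg2 encodes the mitochondrial arginase, which splits arginine into ornithine and urea. In bulk RNA, more cells in a given state and more RNA in each cell cannot be told apart.

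Some members are near copies of each other, which bears on every single value below. The coding sequences of Zscan4c and Zscan4f (1521 bases) differed at 6 positions and those of Zscan4c and Zscan4d at 35 (97.7% identity). The stretch from coding base 665 to 724 shows how little there is to tell them apart. Capitals mark the 5 bases at which Zscan4d differs from Zscan4c.
Zscan4c: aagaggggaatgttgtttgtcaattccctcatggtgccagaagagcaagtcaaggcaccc
Zscan4d: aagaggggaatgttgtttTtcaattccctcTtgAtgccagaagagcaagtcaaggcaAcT
Zscan4f: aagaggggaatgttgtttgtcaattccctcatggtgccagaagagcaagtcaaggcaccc
In the eIF1A-like family, Gm5662 and Gm8300 differed at 8 of 435 coding bases. Their first 60 coding bases were the same and are set against Eif1ax, the X-linked gene for eIF1A itself, with capitals at its 6 differences.
Gm8300: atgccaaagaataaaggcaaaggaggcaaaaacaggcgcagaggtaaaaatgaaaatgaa
Gm5662: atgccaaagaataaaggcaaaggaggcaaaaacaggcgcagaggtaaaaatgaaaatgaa
Eif1ax: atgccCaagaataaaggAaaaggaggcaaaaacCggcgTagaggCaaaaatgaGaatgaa
The Usp17-like members were less alike, with coding identities of 82.0% (Dub1 and Dub1a), 86.0% (Dub1 and Dub3) and 79.8% (Dub1a and Dub3). By BLAST, counting matches of at least 100 bases at 95% identity or higher, the whole transcript of Zscan4c, Zscan4d, Zscan4f and Gm5662 was shared with other annotated genes. The shared part was 84.7% for Zfp352, with Zfp353-ps and Enah, and 23.2% for Gm8300. It was 0% for Dub1, Dub1a and Dub3. Identity was averaged over each match, so closer stretches within a longer match were not counted. Arg2 shared 27.3% with Vti1b and Gm48780, all of it on the opposite strand. Its gene overlaps that of Vti1b by 285 bases. The sources used here do not say how reads that match several copies were treated. Single rows of the Zscan4 and eIF1A-like families, and that of Zfp352, are therefore uncertain, and sums over each family are given beside its rows.

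The 6 members with an entry in the RefSeq promoter table (GRCm38.p6, 250 bases before to 50 after the annotated start) allow the regions in front of co-varying genes to be read side by side. A copy of Zscan4, both Dub genes with an entry, and Zfp352 are shown, with capitals for TATAAA, for CCAAT on either strand, and in Zfp352 for a repeated unit.
Zscan4c (chr7:11005495-11005794, plus strand): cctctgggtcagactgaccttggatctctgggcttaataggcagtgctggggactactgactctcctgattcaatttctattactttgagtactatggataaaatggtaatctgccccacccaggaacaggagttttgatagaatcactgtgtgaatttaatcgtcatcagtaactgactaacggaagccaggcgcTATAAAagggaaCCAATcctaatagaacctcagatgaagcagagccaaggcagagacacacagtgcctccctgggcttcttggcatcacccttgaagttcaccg
Dub1 (chr7:104856766-104857065, plus strand): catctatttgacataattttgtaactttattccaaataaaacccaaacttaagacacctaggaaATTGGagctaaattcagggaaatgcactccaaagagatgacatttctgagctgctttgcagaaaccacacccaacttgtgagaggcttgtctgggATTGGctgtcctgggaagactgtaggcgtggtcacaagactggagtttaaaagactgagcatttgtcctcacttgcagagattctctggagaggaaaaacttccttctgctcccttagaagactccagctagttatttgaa
Dub1a (chr7:104842534-104842833, minus strand): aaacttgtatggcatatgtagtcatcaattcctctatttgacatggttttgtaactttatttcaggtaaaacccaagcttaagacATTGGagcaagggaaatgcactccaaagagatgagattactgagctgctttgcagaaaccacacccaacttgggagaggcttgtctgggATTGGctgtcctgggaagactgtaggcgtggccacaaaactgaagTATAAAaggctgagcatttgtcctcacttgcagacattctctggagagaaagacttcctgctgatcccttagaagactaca
Zfp352 (chr4:90218570-90218869, plus strand): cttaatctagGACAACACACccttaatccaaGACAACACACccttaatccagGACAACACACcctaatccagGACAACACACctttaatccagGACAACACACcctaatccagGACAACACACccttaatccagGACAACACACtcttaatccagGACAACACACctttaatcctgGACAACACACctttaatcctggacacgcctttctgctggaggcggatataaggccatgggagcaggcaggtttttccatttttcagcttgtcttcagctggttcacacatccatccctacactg
TATAAA, the core of the TATA box, stood in 4 of the 6 promoters (Zscan4c, Zscan4d, Zscan4f and Dub1a) and in 13.6% of all 32851 promoters of the same length. It lay at -31 from the annotated start in Zscan4f and Dub1a, at -54 in Zscan4c and at -65 in Zscan4d. CCAAT was in every one of the 6 except Zfp352, against 37.4% of all promoters. These promoters are not independent of each other, since those of the 3 Zscan4 members were 77.5% to 90.7% identical and those of Dub1 and Dub1a 76.3% (edit-distance alignment over the whole window). The Zfp352 promoter held 9 copies of GACAACACAC, the run of 10 bases seen most often in it, which was looked for after the sequence had been read. At least 2 copies stood in 2 of the 32851 promoters, Zfp352 among them. Of the motif of the two-cell factor Dux, 2 forms were searched and were in none of the 6 on either strand, and in 0.0335% and 0.0578% of all promoters. TGCACAC, a motif reported for Zscan4 proteins, was also in none of them, against 4.40% of all. The 6 promoters held 1 to 4 CpG dinucleotides each, where the median promoter held 7.

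Hnrnpk itself stood at 236 and 226 RPKM in control replicates 1 and 2 and at 68.0 and 70.5 RPKM in Hnrnpk siRNA replicates 1 and 2. It was lower in both libraries labelled as its knockdown (log2 change -1.73, limma adjusted p = 6.59e-08). RPKM are reads scaled to gene length and library size, so they allow levels to be compared between genes. The RNA is described both as ribosome-depleted and as poly(A)-selected in the labels. Across the 12486 genes tested (those averaging 0.5 RPKM or more), limma called 8396 (67.2%), taking an adjusted p under 0.05 (Benjamini-Hochberg) as the threshold. Of these, 4025 (32.2%) were higher and 4371 (35.0%) lower after Hnrnpk siRNA, so a call by itself says little about any list. Marker genes of embryonic stem cells, all 8 of which were tested, summed to 3048 and 2893 RPKM in the control and 3834 and 4184 RPKM in the Hnrnpk siRNA libraries (2 higher, 2 lower). Dppa5a carried that difference, at 1320 and 1276 against 2164 and 2451 RPKM, and the other 7 summed to 1727 and 1617 against 1670 and 1733 RPKM. Among those 7, Nanog was called higher, at 204 and 190 against 353 and 342 RPKM. Sox2 (231 and 195 against 147 and 146 RPKM) and Tdgf1 (236 and 231 against 190 and 205 RPKM) were called lower. Markers of other cell types moved with the groups as well. Primitive endoderm markers summed to 15.1 and 14.4 against 40.5 and 41.2 RPKM (5 of 6 tested higher), trophectoderm markers to 30.5 and 36.0 against 68.5 and 73.1 RPKM (5 of 5 tested higher, while Elf5, too low to test, gave 0.105 and 0.109 against 0.0608 and 0.0705 RPKM), and germ cell markers to 36.9 and 38.6 against 86.5 and 88.1 RPKM (5 of 6 higher, 1 lower). Fibroblast markers summed to 9.46 and 8.0 against 4.05 and 4.23 RPKM (2 of 2 tested lower), with Dcn, Col3a1, Postn and Col1a2 under 0.1 RPKM in every library. The part of these cells in the members' values was not tested.

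In control cells the members stood between 0.0138 and 0.422 RPKM and after Hnrnpk siRNA they stood between 1.55 and 15.7 RPKM. They summed to 1.31 and 1.26 RPKM in the control libraries and to 57.4 and 66.6 RPKM in the Hnrnpk siRNA libraries, where the median tested gene had a mean of 9.29 and 9.17 RPKM. In all 10 members the lower Hnrnpk siRNA value exceeded the higher control value, as in 41.2% of the genes tested. The mean was 18.8-fold to 142-fold that in control cells. At least 20-fold was reached by 9 of the 10, and by 0.376% of the genes tested. The contrast that chose the members fixed these counts. All 10 passed the filter at 0.5 RPKM through the Hnrnpk siRNA libraries alone, and none would have passed on its control level. An estimated 3.91 to 74.8 reads or read pairs lay behind each control value and 336 to 3033 behind each Hnrnpk siRNA value, so the ratios are limited by the control libraries.

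**Figure D1:**
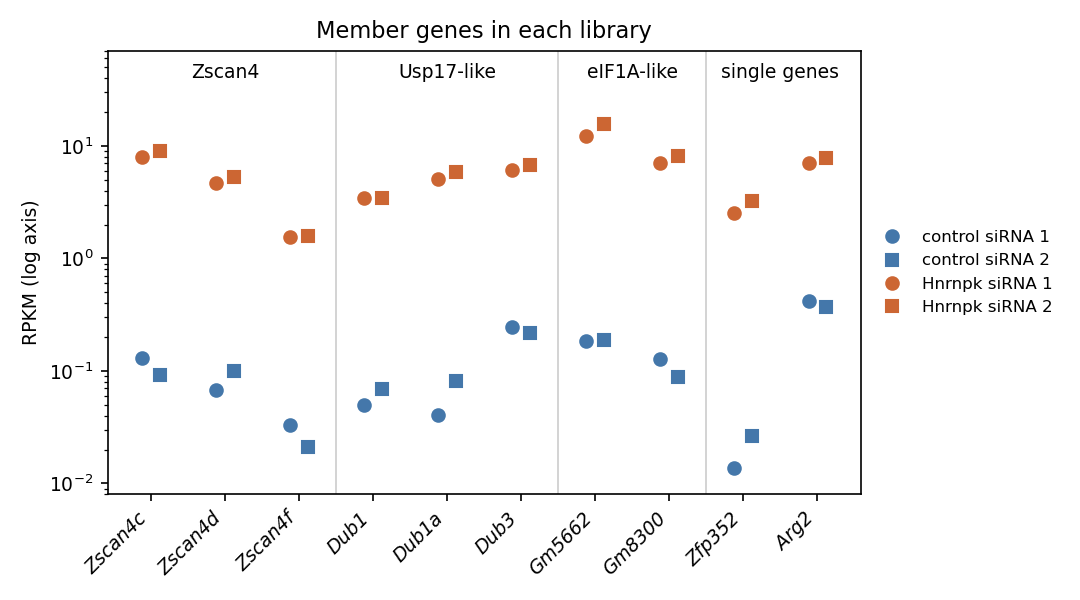
RPKM of each member gene in each of the 4 libraries, on a log axis, with circles for replicate 1 and squares for replicate 2. Blue points are control siRNA and orange points Hnrnpk siRNA. No orange point of a gene reaches down to its blue points, and the control points spread from 0.0138 to 0.422 RPKM.

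Among the Zscan4 members, Zscan4c (chr7:11005745-11010547, plus strand) stood at 0.129 and 0.0921 RPKM in control replicates 1 and 2 and at 7.91 and 8.98 RPKM in Hnrnpk siRNA replicates 1 and 2. Zscan4d (chr7:11161374-11166159, minus strand) gave 0.0680 and 0.10 against 4.65 and 5.32 RPKM. Zscan4f (chr7:11397915-11402318, plus strand) gave 0.0332 and 0.0209 against 1.55 and 1.58 RPKM. Both Hnrnpk siRNA values lay above both control values for each of the 3, as for 41.2% of the genes tested. The contrast that chose the members fixed this. Zscan4f was the lowest member of all after Hnrnpk siRNA. On the scale of log2(RPKM + 0.5) the changes were 3.87 (SE 0.0973), 3.23 (SE 0.0997) and 1.97 (SE 0.0956), in the same order. The value of 0.5 added before taking logs shrinks low genes most. It shrinks the spread of low control values as well, so the SE given here and below do not carry their full counting error. The ratio of means was 76.3 for Zscan4c, 59.3 for Zscan4d and 57.8 for Zscan4f.

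Summed over the 3 members, Zscan4 rows gave 0.231 and 0.213 RPKM in control cells and 14.1 and 15.9 RPKM after Hnrnpk siRNA, a ratio of 67.6. The table held 3 more rows with a Zscan4 symbol. Their identifiers are not in the annotation used, so they were matched by symbol alone and no sequence was compared. Zscan4e gave 0.0209 and 0.0266 against 3.87 and 3.55 RPKM, and the pseudogene Zscan4-ps2 gave 0.0361 and 0.0414 against 3.45 and 3.85 RPKM. Zscan4b gave 0.0138 and 0.00727 against 1.49 and 1.48 RPKM. With them the family summed to 0.301 and 0.289 against 22.9 and 24.8 RPKM, a ratio of 80.8. The ratio of the 3 members had an SD of 5.51 over the 4 pairings of an Hnrnpk siRNA with a control library. These pairings reuse the same libraries and the family sums share rows, so that SD does not measure the difference between the sums. By single rows, Zscan4c made up 37.6% of the family sum in control cells and 35.4% after Hnrnpk siRNA, whereas Zscan4e made up 8.04% and 15.6%. These shares rest on very low control values. They also depend on how reads matching several copies were treated, which is not known.

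The Usp17-like members lie together on chromosome 7. Dub3 (chr7:104768049-104777470, minus strand) gave 0.246 and 0.219 RPKM in control cells and 6.07 and 6.72 RPKM after Hnrnpk siRNA. Dub1a (chr7:104840257-104842603, minus strand) gave 0.0409 and 0.0815 against 5.04 and 5.88 RPKM. Dub1 (chr7:104857009-104862667, plus strand) gave 0.050 and 0.0695 against 3.44 and 3.41 RPKM. In control cells Dub3 alone stood clear of the other 2, which overlapped each other. The ratios of means were 27.5 (Dub3), 89.3 (Dub1a) and 57.3 (Dub1), and the log2 changes 3.23 (SE 0.0932), 3.41 (SE 0.103) and 2.81 (SE 0.0922). Dub3 thus had the smallest ratio of the family from the highest control level.

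The 3 members summed to 0.337 and 0.370 against 14.6 and 16.0 RPKM, a ratio of 43.2. Of the other copies, Usp17l5 gave 0.0361 and 0.0903 against 3.30 and 3.69 RPKM, and Dub2a gave 0.0223 and 0.0351 against 0.862 and 0.879 RPKM. The ratio over all 5 copies was 44.1. Dub3 held 52.2% of that sum in control cells and 32.6% after Hnrnpk siRNA, while Dub1a went from 13.7% to 27.8%. For neither row did a BLAST match of at least 100 bases with another annotated gene average 95% identity or higher. Closer stretches within longer matches were not searched for. The control values of Dub1a rest on an estimated 7.92 and 15.5 reads or read pairs.

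Of the eIF1A-like members, the row named Gm5662 (chr12:87874072-87877859, plus strand) was the highest member after Hnrnpk siRNA. It gave 0.183 and 0.190 RPKM in control cells and 12.1 and 15.7 RPKM after Hnrnpk siRNA, a ratio of 74.7 and a log2 change of 4.38 (SE 0.117), the first of all genes tested by that measure. Gm8300 (chr12:87514316-87518266, plus strand) gave 0.128 and 0.0878 against 7.04 and 8.05 RPKM, a ratio of 70.0 and a log2 change of 3.72 (SE 0.0991). The 2 rows summed to 0.311 and 0.277 against 19.2 and 23.7 RPKM, a ratio of 73.0. Gm5662 had the widest gap between the Hnrnpk siRNA libraries of all members, replicate 2 being 1.29 times replicate 1. The symbols need care, since the Ensembl identifier the table names Gm5662 is called Gm2016 in GENCODE M21 and the one named Gm2016 is called Gm5662 there. The table's Gm2016 gave 0.0479 and 0.0757 against 6.00 and 6.96 RPKM.

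Other rows of this family were found by sequence and by symbol. Gm4027 gave 0 and 0.0305 against 1.21 and 1.53 RPKM, and a row named BB287469 (ENSMUSG00000079031) gave 0.00435 and 0 against 1.01 and 1.21 RPKM. The ratio over the 5 copies matched by sequence was 81.5. Another 3 rows carry a family symbol but an identifier that is not in the annotation used. Of these, a second row named BB287469 (ENSMUSG00000071217) gave 0.0548 and 0.0388 against 4.47 and 4.86 RPKM, and Gm2075 gave 0.0457 and 0.00800 against 1.32 and 2.0 RPKM. Gm6803 was unlike every other copy, at 0.456 and 0.357 against 0.675 and 0.851 RPKM. It had the highest control level of the family, and with these 3 rows, which were added after the data had been seen, the ratio of the family sum was 43.9.

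**Figure D2:**
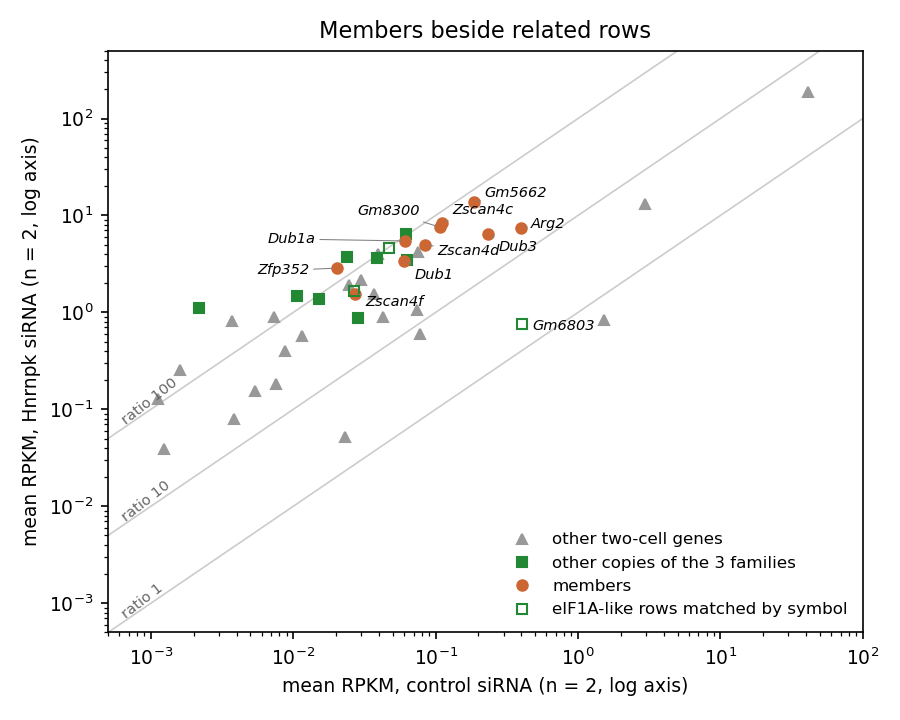
Mean RPKM after Hnrnpk siRNA against mean RPKM after control siRNA, both on log axes, for the members (orange circles), other family copies (filled green squares), eIF1A-like rows matched by symbol (open squares) and other two-cell genes (grey triangles), with lines at ratios of 1, 10 and 100. Members lie between 18.8-fold and 142-fold, Gm6803 lies nearer to the line at a ratio of 1 than any other copy, and 8 of the 30 other two-cell genes are not drawn because a group mean was 0.

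Genes named after the initiation factors eIF1A and eIF1 changed less than the eIF1A-like members. Eif1ax, at 42.3 and 46.9 against 32.2 and 33.7 RPKM, fell (log2 change -0.43, limma adjusted p = 0.000472). Eif1a, its autosomal relative, rose from 85.1 and 91.2 to 110 and 109 RPKM (log2 change 0.31, limma adjusted p = 0.0018). Eif1, Eif1b and Eif1ad had log2 changes of 0.12, 0.09 and 0.05 and were not called (limma adjusted p = 0.189, 0.235 and 0.520), although Eif1 was called without Hnrnpk siRNA replicate 1 (limma adjusted p = 0.0467). None of these 5 genes had a change as large as that of either eIF1A-like member.

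Zfp352 (chr4:90218820-90225702, plus strand) had the lowest control values and the largest ratio among the members. It gave 0.0138 and 0.0264 RPKM in control cells and 2.52 and 3.21 RPKM after Hnrnpk siRNA, a ratio of 142 and a log2 change of 2.68 (SE 0.115). That ratio rests on an estimated 3.91 and 7.34 reads or read pairs in the control libraries, and on a row that shares most of its transcript with other genes. Zfp353, the row of its close relative, gave 0.00158 and 0.00161 against 0.244 and 0.268 RPKM and was under the filter. Arg2 (chr12:79130777-79156301, plus strand) had the highest control values, 0.422 and 0.371 RPKM, and gave 7.07 and 7.81 RPKM after Hnrnpk siRNA, a ratio of 18.8 and a log2 change of 3.15 (SE 0.0924). Arg1, the cytosolic arginase, went the other way at 0.0652 and 0.0526 against 0.00612 and 0.0124 RPKM and was too low to test. Vti1b, which overlaps Arg2 on the opposite strand, gave 25.1 and 26.8 against 27.8 and 32.1 RPKM and was not called (log2 change 0.20, limma adjusted p = 0.0512). It was called with median-ratio scaling (limma adjusted p = 0.0296), with a replicate block (0.0134), without control replicate 2 (0.0266) and without Hnrnpk siRNA replicate 1 (0.0148). Whether the libraries kept strand is not stated in the labels.

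The order of the members differed between the groups. In control cells it ran Arg2, Dub3, Gm5662, Zscan4c, Gm8300, Zscan4d, Dub1a, Dub1, Zscan4f, Zfp352, and from Zscan4c to Dub1 each gene overlapped the next in its replicate values, as Zscan4f did with Zfp352. After Hnrnpk siRNA it ran Gm5662, Zscan4c, Gm8300, Arg2, Dub3, Dub1a, Zscan4d, Dub1, Zfp352, Zscan4f, and overlapping neighbours were Zscan4c with Gm8300, Gm8300 with Arg2, and Dub1a with Zscan4d. Replicate 2 was higher than replicate 1 in 9 of the 10 members after Hnrnpk siRNA, Dub1 being the exception. The same held for 57.8% of the genes tested. Between the control libraries replicate 2 was the higher in 5 of the 10.

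**Figure D3:**
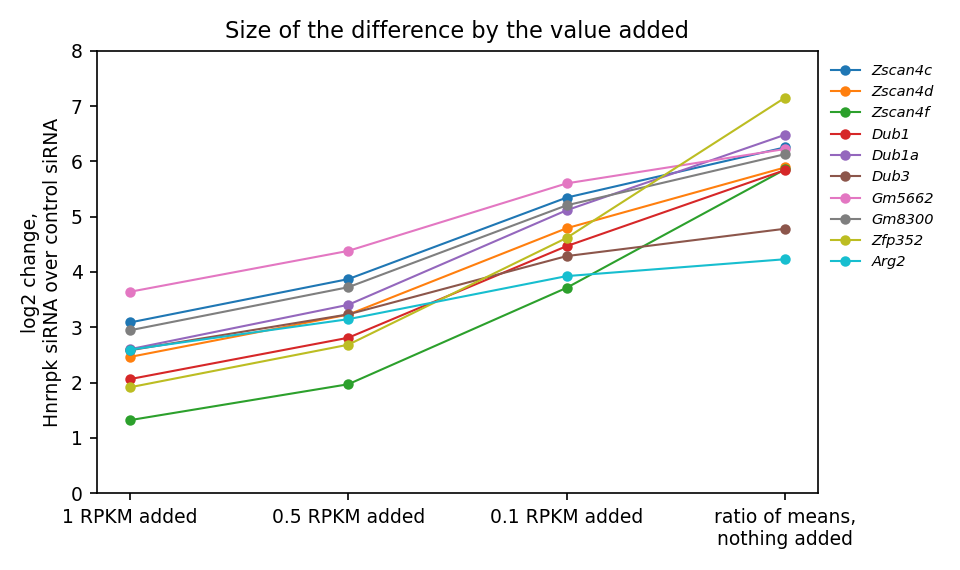
Log2 change of each member with 1, 0.5 or 0.1 RPKM added before taking logs, and the log2 of the plain ratio of means, one line for each gene. The order of the genes depends on the value added: Gm5662 leads at each of the 3 added values and Zfp352, at 7.15, in the plain ratio.

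Other genes of the two-cell embryo, from a list of 41 names matched by the table's symbols, were in the table for 30. Gm13109 is on the list under its GENCODE M21 name, Pramef25, and so was not counted. It gave 0.0396 and 0.0576 RPKM in control cells and 3.33 and 3.88 RPKM after Hnrnpk siRNA. Over the rows above 0 in any library, 24 of 27 had the lower Hnrnpk siRNA value above the higher control value, against 39.0% of all such rows in the table. Of the 27, 5 were at 0 in both control libraries. The rows include several Tdpoz genes and Zfp353, the close relative of Zfp352, and so are not independent of each other. Only 9 passed the filter, of which 8 were called higher and 1 lower (median log2 change 2.18, against -0.01 over all genes tested). Of the 8, 6 passed through the Hnrnpk siRNA libraries alone and so had to differ, and their values are given as a description. Among these, Gm12794 stood at 0.0676 and 0.0113 against 3.91 and 4.07 RPKM, and Gm8994, Gm13078, Gm4340, Gm13119 and Cml2 had log2 changes of 1.43 to 3.03. The other 2 were above the filter in control cells. Calcoco2, which encodes an autophagy receptor, rose from an already high level, 35.0 and 47.8 RPKM, to 178 and 196 RPKM (log2 change 2.18, limma adjusted p = 7.17e-07). Ddit4l, a relative of a stress-induced inhibitor of mTOR signalling, rose from 3.46 and 2.48 to 12.8 and 13.5 RPKM (log2 change 1.99). Klf17, a Krüppel-like transcription factor, was the one that fell, from 1.70 and 1.36 to 0.877 and 0.785 RPKM (log2 change -0.60, limma adjusted p = 0.000789). The number called higher was 22 with no filter on low values and 5 with a filter at a mean of 1 RPKM.

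The tested genes outside the members and their families whose profile over the 4 libraries was nearest to the members' median profile were Gm6189, Gm12794, Gm8994, Gm13109 and Cryab, with root mean square differences of 0.0550, 0.137, 0.157, 0.235 and 0.274 on the log2 scale. Gm6189 stood at 0.0430 and 0.0413 against 4.47 and 5.27 RPKM. Cryab, a small heat shock protein, differed from the others in its level, at 3.68 and 3.25 against 29.5 and 27.6 RPKM. Likeness over 4 libraries of 2 groups says little more than that the change was of the same size.

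Genes known as activators or repressors of the two-cell-like state were tested for 24 of 26 names, of which 3 rose, 11 fell and 10 were not called (median log2 change -0.15). For comparison, 32.2% of all genes tested were called higher and 35.0% lower. Smchd1, a chromatin protein of X inactivation, fell from 21.8 and 21 to 10.8 and 9.50 RPKM (log2 change -1.04, limma adjusted p = 3.47e-06). Dppa2, an activator of the state, rose from 28.6 and 32.7 to 62.5 and 61.4 RPKM (log2 change 1.01). Ehmt2, a histone H3 lysine 9 methyltransferase, Dnmt1, the maintenance DNA methyltransferase, and its partner Uhrf1 fell by 0.65, 0.65 and 0.61 on the log2 scale. The row named Dux, whose identifier GENCODE M21 calls AW822073, gave 0.0104 and 0.0197 against 0.189 and 0.149 RPKM and was under the filter, so nothing here speaks for the level of the Dux factor itself.

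Relatives by protein family had log2 changes of -1.22 to 1.02. Calls over all genes tested were 32.2% higher and 35.0% lower. Among 19 SCAN zinc finger genes outside Zscan4, 6 rose, 1 fell and 12 were not called, with a median log2 change of 0.10. Zscan30 rose from 0.422 and 0.505 to 1.39 and 1.52 RPKM (log2 change 1.02) and Zscan5b fell from 3.12 and 2.75 to 1.21 and 1.31 RPKM (log2 change -0.96). The number that rose was 2 without Hnrnpk siRNA replicate 1 and 3 without Hnrnpk siRNA replicate 2, and the number that fell was 3 without control replicate 2. Of 47 tested ubiquitin-specific protease genes outside the Usp17-like family, 11 rose, 19 fell and 17 were not called, with a median of -0.10. Usp28 fell from 56.1 and 51.0 to 23.4 and 22.0 RPKM (log2 change -1.22), Usp44 and Usp11 fell by 1.13 and 1.05, and the largest rise was that of Usp40, 0.46. With either Hnrnpk siRNA library left out, 7 rose.

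Genes of arginine and polyamine metabolism, a list of enzymes around Arg2 with an ornithine carrier and an inhibitor of antizyme, moved both ways. Of 16 tested, 4 rose, 10 fell and 2 were not called, with a median log2 change of -0.37. Shares over all genes tested were 32.2% called higher and 35.0% called lower. Ass1, which makes the precursor of arginine, rose from 59.1 and 54.4 to 139 and 140 RPKM (log2 change 1.29, limma adjusted p = 3.97e-07). Asl, the next enzyme on the way to arginine, fell (log2 change -0.70), as did Agmat, an agmatinase (log2 change -0.96), the polyamine oxidase Paox (log2 change -1.05) and the endothelial nitric oxide synthase Nos3 (log2 change -1.17).

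The nearest tested genes on either side of the members had log2 changes of -0.87 to 0.73, against 1.97 to 4.38 for the members. They were 10 genes at 0 to 1405 kb, of which 6 rose, 2 fell and 2 were not called (median log2 change 0.24). Beside them, 32.2% of all genes tested were called higher and 35.0% lower. Between a member and its flanking gene lay 0 to 23 other rows. Those rows were untested, members or family copies, so genes closer to the members were mostly not examined. Snw1, 42.0 kb from Gm8300, rose by 0.22 on the log2 scale, and Pigh, 41.1 kb from Arg2, by 0.57. Around the Zscan4 members, Zik1 was not called (log2 change 0.06) and Zfp551 rose (log2 change 0.41). Without Hnrnpk siRNA replicate 1 its log2 change was 0.37 and the call was lost (limma adjusted p = 0.0607). Around the Usp17-like members, Trim12c fell (log2 change -0.53) and Fam160a2 rose (log2 change 0.27). Zfp352 lay between Cdkn2b, which rose by 0.73, and Elavl2, which fell (log2 change -0.87). Adck1, beyond Gm5662, rose by 0.26. Without Hnrnpk siRNA replicate 2 its log2 change was 0.20 and the call was lost (limma adjusted p = 0.113).

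**Figure D4:**
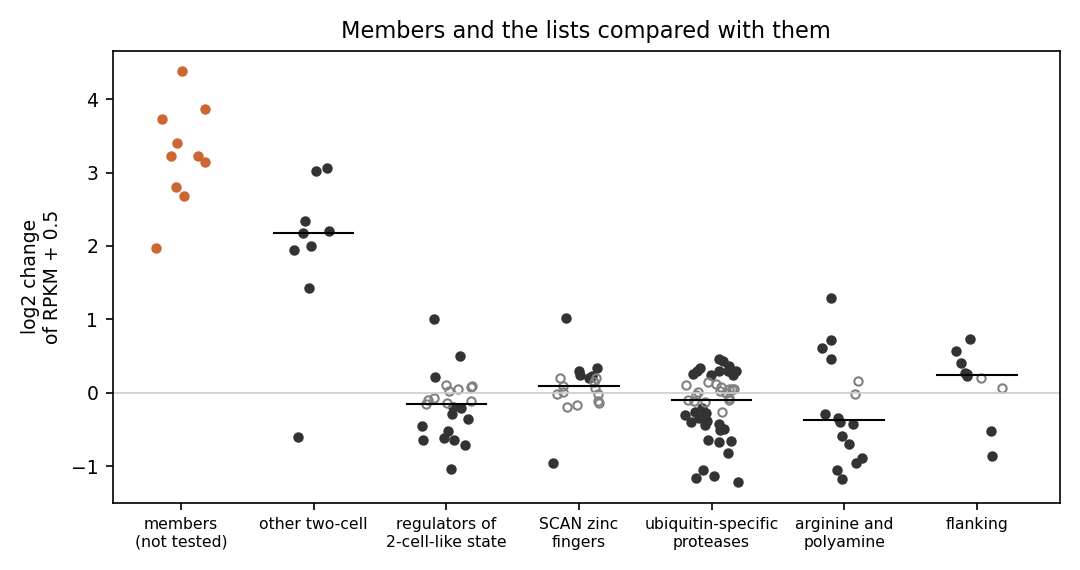
Log2 change of RPKM + 0.5 for the members, which were not tested, and for the tested genes of 6 lists, with filled points for genes called by limma, open points for genes not called and a line at each list's median. The medians run from -0.37 (arginine and polyamine genes) to 2.18 (other two-cell genes), and the 10 members lie between 1.97 and 4.38.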

How the data were processed

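RNA-seq values were RPKM per gene in 1 table, deposited by the authors with a column for each of 4 libraries; BWA, SAMtools and the mouse build mm9 are named in the submitters' processing notes, while no source used here names the counting tool or the annotation. No whole reads could be recovered from the values, so no count model was used. Depth was estimated from the commonest step between low values, which gave denominators of 124200000 and 121900000 units in the control and 110700000 and 109500000 in the Hnrnpk siRNA libraries, where a unit is a read or a read pair.

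Genes averaging 0.5 RPKM or more were compared on log2(RPKM + 0.5) by limma 3.58.1 in R 4.3.3 (group only, mean-variance trend, two-sided, Benjamini-Hochberg, called at an adjusted p under 0.05). An exact permutation test of 2 against 2 libraries cannot go below p = 0.333. Positions and transcripts came from GENCODE M21 on GRCm38, which held 20551 of the 22138 identifiers, and not from mm9; sequences were compared with BLAST 2.17.0. Family copies were rows with a family symbol or a sequence match. For a match, the row's longest annotated transcript had at least 50% identity to a member over at least 80% of its own length. Promoters came from RefSeq.

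The members, lists and rules were chosen with earlier results of these data known. Named are all members, family copies, relatives or genes of like name, and flanking genes. Also named are up to 5 genes of each list by lowest p with the largest change the other way, and the 5 nearest profiles. The lists' other names, markers included, were chosen from general knowledge. Alternatives were other added values, filters, scalings, a fit with no trend, a replicate block and each library left out.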

Additional observations from a re-analysis of the deposited data

How the results depend on the processing

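Over the alternatives the members' log2 changes ran from 1.32 to 5.60. None reversed, but the members were chosen on this contrast, so their direction was fixed in advance. At a mean of 1 RPKM 9 of the 10 remained tested, through the Hnrnpk siRNA libraries alone, and Zscan4f dropped out. The median log2 change of 3.23 was 4.70 with 0.1 RPKM added and 2.59 with 1 RPKM added, as the added value sets how far low control values count. The ratio of the Zscan4 sum, 67.6 over members, was 80.8 with the rows matched by symbol alone added. That of the eIF1A-like sum, 73.0, was 43.9 when rows matched by symbol were added, an alternative chosen after seeing the data. Other two-cell genes called higher, 8, were 22 with no filter and 5 at a mean of at least 1 RPKM, where fewer or more rows were tested. Flanking genes called lower, 2, were 1 at that mean. Under quantile normalization 2 SCAN zinc finger genes were called lower in place of 1; the cause was not tested. With each library left out in turn, SCAN genes called higher ranged from 2 to 6 and lower from 1 to 3, and ubiquitin-specific protease genes called higher from 7 to 11. The lone library of a group was then taken to vary like the other group.

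Replicate numbers were shared by the groups, but the labels do not say that a number pairs libraries, and the correlation of same-numbered deviations was 0.027. With a replicate block, 4162 genes were called higher and 4460 lower (4025 and 4371 without it), and the block made Vti1b called (limma adjusted p = 0.0134).

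Control values of the members rest on few reads, so their ratios carry wide counting error, and 2 libraries a group limit every spread given.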
